A study of Drosophila melanogaster with 3 samples.

Results

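Intergenic peaks of the tagged fly protein CG10274 have their highest signal outside every annotated gene and away from every annotated transcription start site (TSS). They were taken from the combined list of 2988 peaks, in dm6 coordinates, by position alone: the summit, the authors' single base of highest signal, had to lie more than 500 bp from any TSS of the Ensembl annotation and in no gene body, with transposable elements left out of the annotation. Of the 2988 combined peaks, 363 met this rule, which is 12.1% (95% Wilson interval 11.03 to 13.4). Of the rest, 1413 had a summit within 500 bp of a TSS and 1212 lay inside a gene farther from its starts. The members nearest to the limit lay 513 bp upstream of a TSS of foxo and 518 bp upstream of one of SERCA, and the nearest peaks that missed it lay 498 bp upstream of CG43901 and 496 bp upstream of TpnC47D. Some broad peaks hold several summits, so the 363 summits fall in 360 distinct intervals and, if summits within 500 bp of each other are joined, at 338 sites. Only the summit had to meet the rule. The intervals near Sesn and wech also cover the TSS of that gene, and replicate scores were read over whole intervals.

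Chromatin of whole Drosophila melanogaster embryos, of mixed sex and 0 to 24 h old, was immunoprecipitated through GFP, and the recovered DNA was sequenced (ChIP-seq). The embryos came from 1 transgenic line that stably expresses CG10274 with GFP at its C-terminal end, and chromatin was sonicated to 200 to 800 bp. There were 3 biological replicates of this 1 group and no second condition; a control data set that the labels name was not analysed here. Each replicate had its own list of 30000 entries, and the combined list holds what passed the irreproducible discovery rate, by which the authors asked how well peaks keep their rank between replicates. The lists carry the authors' peak score and no read totals, so depth is unknown, and the interval given with a share reflects only how many peaks were counted. In embryos pooled over all stages, strong binding in few cells and weak binding in many cells cannot be told apart.

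CG10274 belongs to the C2H2 zinc-finger proteins, a large family in which small zinc-bound folds read the DNA sequence. In the compact fly genome, intergenic sequence holds many of the enhancers that switch developmental genes on in particular embryonic cells, often far from the promoter they serve, beside the starts of non-coding RNAs that annotation may list only in part. A protein recovered there may touch DNA directly or come down through a partner or a looped promoter, and ChIP-seq does not separate these cases.

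The sequences shown are the 101 bases centred on the summits of 8 of the 14 highest-scoring intergenic peaks, from the plus strand of the RefSeq release 6 genome, to let strong sites be compared by eye. The windows of the other 6, near Sesn, wech, lncRNA:CR43650, insb, lncRNA:CR44465 and unpg, are not shown. Capitals mark a match to a weight matrix of 16 positions that was built only from other combined peaks, as described further on. Of the windows shown, those at Asator and AOX4 hold such a match; of the 15 highest-scoring members 5 do, the other 3 being those near Sesn, insb and spz. Long runs of A and T are seen in the first and second windows.
chinmo, 12405 bp upstream, chr2L:1638803-1638903: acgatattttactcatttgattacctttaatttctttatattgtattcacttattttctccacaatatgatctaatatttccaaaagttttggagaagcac
RasGAP1, 699 bp upstream, chr3L:9855934-9856034: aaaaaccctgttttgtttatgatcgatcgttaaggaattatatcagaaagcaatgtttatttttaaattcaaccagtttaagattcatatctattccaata
Asator, 533 bp upstream, chr4:489477-489577: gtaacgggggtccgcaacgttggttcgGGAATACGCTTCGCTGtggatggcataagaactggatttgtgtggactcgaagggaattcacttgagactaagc
CrebA, 1696 bp upstream, chr3L:15533649-15533749: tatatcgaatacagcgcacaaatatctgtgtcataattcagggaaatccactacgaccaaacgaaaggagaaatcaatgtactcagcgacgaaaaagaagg
Myc, 12584 bp upstream, chrX:3360525-3360625: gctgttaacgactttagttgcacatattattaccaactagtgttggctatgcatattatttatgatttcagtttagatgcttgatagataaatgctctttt
Glut4EF, 725 bp upstream, chr3R:9873906-9874006: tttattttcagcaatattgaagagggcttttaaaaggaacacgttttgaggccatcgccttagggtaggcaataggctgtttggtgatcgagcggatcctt
AOX4, 28037 bp upstream, chr3R:15580820-15580920: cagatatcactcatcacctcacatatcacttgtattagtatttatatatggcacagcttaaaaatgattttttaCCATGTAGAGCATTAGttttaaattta
CG31928, 6190 bp upstream, chr2L:1486055-1486155: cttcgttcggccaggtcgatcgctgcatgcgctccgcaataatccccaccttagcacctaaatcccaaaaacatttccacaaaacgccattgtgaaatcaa

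The strongest intergenic peak of the combined list lay upstream of chinmo, which encodes a BTB zinc-finger protein that sets the temporal identity of neurons. It covered 1638422 to 1639135 on arm 2L and ranked 6 among all 2988 peaks. Relative to the median combined peak of each replicate, a scale on which 1 is a typical peak, it scored 48.0, 19.7 and 29.5 in replicates 1, 2 and 3, averaging 32.4 ± 14.4 (SD, n = 3). All 3 values were far above 1, and they differed by more than 2 times between replicates. The nearest annotated TSS was not that of chinmo but that of the short non-coding RNA gene lncRNA:CR45695, for which the summit lay 8310 bp downstream of the start and beyond the gene.

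This peak was part of a cluster. The gap between lncRNA:CR44603 and lncRNA:CR45695 held 5 intergenic peaks at 5 sites, and the next gap, between lncRNA:CR45695 and chinmo, held 3. The second strongest of the 8 lay at 7797 bp upstream of chinmo, at rank 264, and had relative scores of 3.95, 1.91 and 2.52 in replicates 1, 2 and 3. At 18373 bp upstream the values were 1.68, 2.09 and 1.75, and at 16908 bp upstream they were 1.29, 1.31 and 1.43. These 3 peaks exceeded the median combined peak in every replicate. The other members of the cluster lay near or below it: the one farthest upstream, at 21561 bp, had 0.375 in replicate 1 against 1.40 and 1.03 in replicates 2 and 3, and the one at 2479 bp had no entry in replicate 3. The 2 summits at 1819 and 1604 bp share 1 site and the same entry in replicate 3. With the protein-coding genes alone considered, 7 of the 8 have chinmo as their nearest start.

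**Figure D1:**
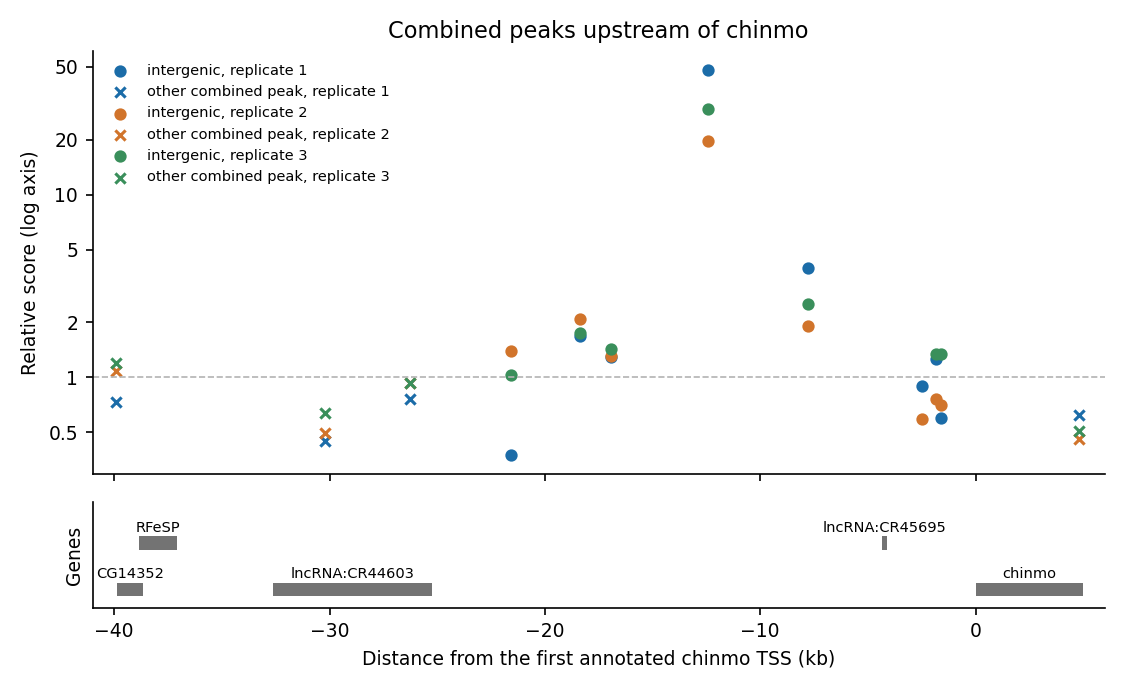
Relative score (log axis, 1 is the median combined peak of the replicate) of each combined peak in every replicate, against distance in kb from the first annotated chinmo TSS; dots are intergenic peaks, crosses are other combined peaks, and grey bars are annotated genes, with chinmo drawn in part. The peak at −12405 bp stands at 48.0, 19.7 and 29.5, while the other intergenic peaks shown reach at most 3.95.

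The summits of the next 3 members by rank lay close upstream of protein-coding genes, just past the 500 bp limit. The peak 699 bp upstream of RasGAP1, which encodes a GTPase-activating protein that switches Ras off, covered 9855580 to 9856823 on arm 3L and had relative scores of 40.7, 27.4 and 35.2 in replicates 1, 2 and 3. Its mean of 34.4 ± 6.66 (SD, n = 3) differed from that of the chinmo peak by less than the spread between replicates. The peak 694 bp upstream of Sesn, the fly sestrin, a stress-induced restraint on TOR signalling, covered 23712408 to 23713951 on arm 2R, with values of 34.4, 17.8 and 25.6. That interval includes the Sesn TSS at 23713900. The peak 533 bp upstream of Asator, a gene of the tau tubulin kinase family, covered 489166 to 489910 on chromosome 4, with values of 22.7, 15.8 and 18.8. These 3 and the chinmo peak form the top 4, each at 15.8 or above in every replicate.

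A step down, the fifth member, 620 bp upstream of wech, which encodes an adaptor that couples integrins to the cytoskeleton at muscle attachments, averaged 10.8 ± 3.52 (SD, n = 3). The sixth, 1696 bp upstream of CrebA, the bZIP activator of secretory pathway genes in salivary glands, averaged 10.09 ± 2.22. The seventh lay between lncRNA:CR44886 and lncRNA:CR46243 on the X, 12584 bp upstream of Myc, the growth-promoting bHLH factor, and had 10.8, 5.19 and 7.52. Members 8 to 15 averaged between 4.46 and 7.82 and lay near lncRNA:CR43650, insb, lncRNA:CR44465, Glut4EF, unpg, AOX4, CG31928 and spz. Of these genes, insb (insensible) encodes a nuclear inhibitor of Notch signalling, unpg (unplugged) a homeobox factor of the nervous system, and spz the ligand of the Toll receptor.

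All 15 of the highest-scoring members were supported by the top peaks of all 3 replicates, and their lowest value in any replicate was 3.68. They were picked by the combined score, which draws on the same replicates, so such support follows from the choice. Among the first 300 combined peaks, 97.2% of members and 95.1% of the other peaks were supported by all 3. Summits of 13 of the 15 lay upstream of the nearest TSS and 10 lay within 2000 bp of it. Replicate 1 gave the highest of the 3 relative scores at 13 of the 15 and replicate 2 the lowest at 14, so the replicates differ in how far their strongest peaks rise above their own median.

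**Figure D2:**
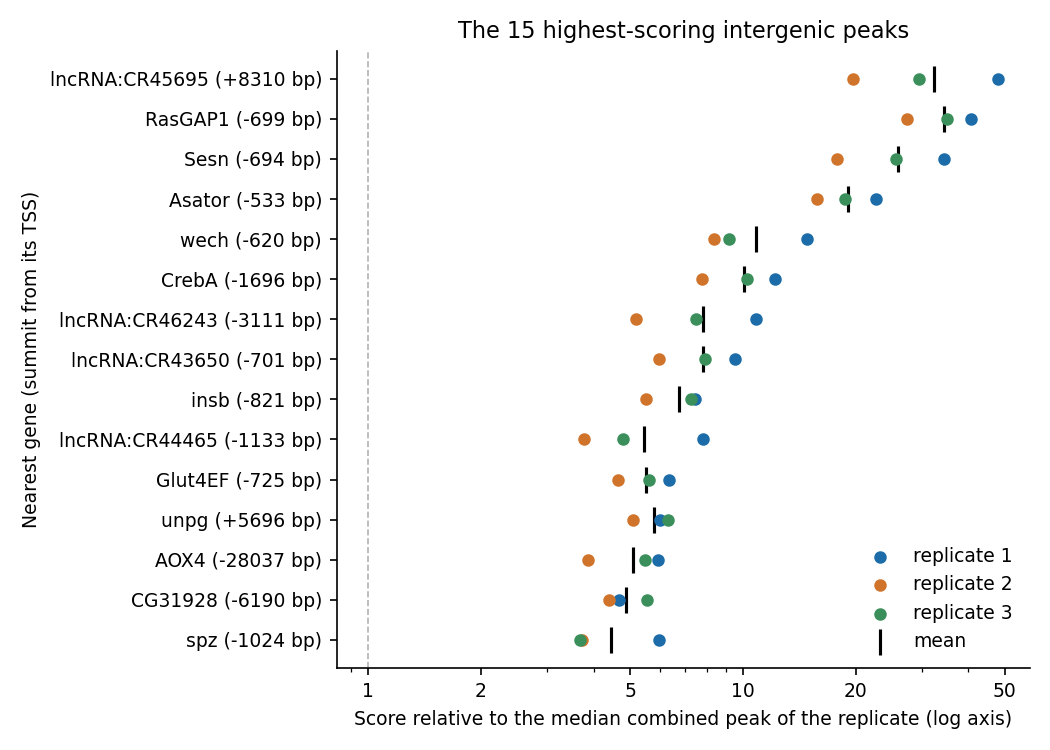
Relative score (log axis, dashed line at 1, the median combined peak) of the 15 highest-scoring intergenic peaks, in order of the combined score, each named by its nearest gene with the signed distance of the summit from that gene's TSS (minus is upstream); dots are replicates and bars their mean. The first 4 peaks lie at 15.8 or above in every replicate, and no value of the 15 lies below 3.68.

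Below these, the intergenic peaks were of ordinary strength. A relative score of 2 or more in all 3 replicates was found for 36 of the 363 members, 9.92% (7.25 to 13.4), against 10.6% of the other combined peaks and 10.5% of all combined peaks. The median relative score of members was 0.931, 0.906 and 0.960 in replicates 1, 2 and 3, against 0.948, 0.934 and 0.993 for other combined peaks. Among peaks listed in a replicate, members were thus lower in 3 of 3 replicates, by a mean log2 ratio of −0.04 ± 0.013 (SD, n = 3), a fold of 0.973. The exact two-sided sign-flip permutation test gave p = 0.25, the smallest p that 3 replicates allow. The sign depended on what the members were set against. They lay below peaks near a TSS, at 0.909, 0.919 and 0.840 times their median, and above peaks within genes, at 1.06, 1.03 and 1.08 times. Each median covers only the combined peaks with an entry in that replicate's list. Those were 341, 360 and 332 of the 363 members, and 2591, 2596 and 2019 of the 2625 other peaks. Replicate 3 thus left out a larger part of the other peaks than of the members. The order there over all peaks, listed or not, is unknown.

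Strong and weak members were spread over the whole list. The first 300 combined peaks held 36 members, ranks 301 to 1000 held 76, ranks 1001 to 2000 held 110 and ranks 2001 to 2988 held 141. Those are 12.0%, 10.9%, 11.0% and 14.3% of each range. Across members, the scores of replicates 2 and 3 had a Spearman correlation of 0.718 (330 members), those of 1 and 3 one of 0.686 (312 members) and those of 1 and 2 one of 0.597 (339 members). Across the other combined peaks the same pairs had higher correlations, of 0.812, 0.729 and 0.651 in that order. These describe the peaks only, since peaks of 1 library share its depth and the combined list was chosen from the same replicates.

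Support by the replicates' own strongest peaks differed from replicate to replicate. A peak was counted as supported if it overlapped one of the top 2988 entries of a replicate by at least 1 bp. All 3 replicates supported 179 members, 49.3% (44.2 to 54.4), against 50.5% of the other combined peaks and 50.3% of all. Replicate 1 supported 68.0% of members (63.1 to 72.6) against 80.3% of the other peaks and 78.8% of all, while replicate 3 supported 75.2% (70.5 to 79.4) against 65.0% of the other peaks and 66.2% of all. For replicate 2 the shares were 85.4% of members (81.4 to 88.7), 83.1% of the other peaks and 83.4% of all. The members' share was thus below that of the other peaks in replicate 1, above it in replicate 3 and within its own interval of it in replicate 2. Counting entries of any rank, replicate 1 listed 93.9% of members against 98.7% of the other peaks (98.1% of all), replicate 2 listed 99.2% against 98.9% (98.9% of all), and replicate 3 listed 91.5% against 76.9% (78.7% of all). Replicates 2 and 3 without replicate 1 supported 63 members (17.4%, against 8.72% of the other peaks), and replicates 1 and 2 without replicate 3 supported 36 (9.92%, against 17.2%).

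The replicates' own lists differed in their intergenic share. Among its top 2988 entries, replicate 1 had 9.84% intergenic summits by the same rule, replicate 2 had 13.9% and replicate 3 had 20.0%, a mean of 14.6% ± 5.14 (SD, n = 3). At the top of the lists they differed less, with 11.1%, 11.4% and 12.9% among the first 1000 entries. The gap opened at lower ranks, and in the last 10000 entries the shares were 12.6%, 24.0% and 30.6%. The sequence in which an intergenic summit could lie, called eligible here, made up 38.97 Mb or 28.3% of the 7 chromosome arms. All 3 replicates lay below that share at 2988 entries, at a mean log2 ratio of −1.02 ± 0.51 (SD, n = 3; p = 0.25, exact two-sided sign-flip permutation test, the smallest possible), and replicate 3 lay above it from rank 2001 on. The combined list, at 12.1%, held 0.429 times the eligible share. In the unmasked sequence without the Y, which leaves out repeats as the reference marks them, the eligible share was 24.9% and the members' share 12.5%, a ratio of 0.504.

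**Figure D3:**
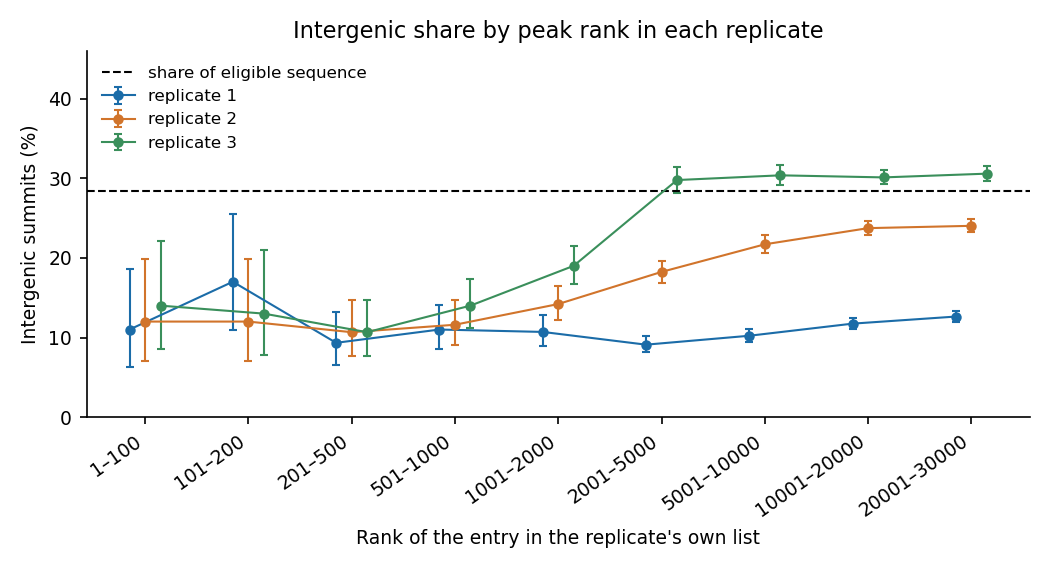
Percent of entries with an intergenic summit against rank in each replicate's own list; points are shares with 95% Wilson intervals, and the dashed line is the 28.3% of sequence that is eligible. The replicates overlap in the first 1000 ranks and part below, to 12.6% in replicate 1, 24.0% in replicate 2 and 30.6% in replicate 3 in the last range.

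Intergenic peaks lay closer to genes than the sequence open to them. The median distance of a member's summit to the nearest TSS was 2387 bp (quartiles 1151.5 and 5087.5), against 6390 bp for eligible bases. Distances of 500 to 1000 bp held 75 members (20.7%, against 7.40% of eligible bases), 1000 to 2000 bp held 84 (23.1%, against 12.0%), and 2000 to 5000 bp held 111 (30.6%, against 23.6%). Farther out the order turned: 5000 to 10000 bp held 54 (14.9%, against 18.9%) and more than 10000 bp held 39 (10.7%, against 38.0%). In the replicates' own top entries the median was 1898, 2427 and 3395 bp, a mean of 2573 ± 759 bp (SD, n = 3), below the eligible median in each. Among unmasked bases without the Y, the median was 2507 bp for members and 5183 bp for eligible bases. The member farthest from any TSS lay 36586 bp upstream of CG43245.

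**Figure D4:**
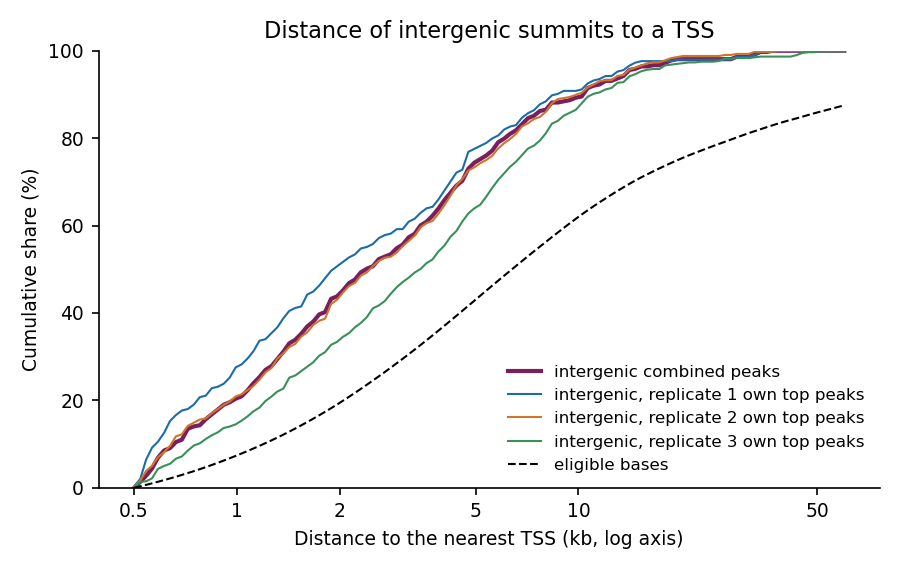
Cumulative percent of intergenic summits and of eligible bases against distance to the nearest TSS (kb, log axis); the thick line is the 363 combined peaks, thin lines are intergenic entries among each replicate's own top 2988, and the dashed line is eligible bases. The medians are 2387 bp for the combined peaks, 1898 to 3395 bp for the replicates, and 6390 bp for eligible bases.

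Position relative to the gene was uneven too. Summits of 248 members, 68.3% (63.4 to 72.9), lay on the upstream side of their nearest TSS, against 57.9% of eligible bases. Within 2000 bp, 81.8% of 159 members lay upstream (against 71.8% of eligible bases), and beyond 2000 bp 57.8% of 204 members did (against 54.6%). Upstream shares in the replicates' own top entries were 71.4%, 68.0% and 64.3%. The nearest TSS belonged to a protein-coding gene for 255 members (70.2%, against 65.0% of eligible bases), to a non-coding RNA gene for 102 (28.1%, against 26.4%) and to a tRNA gene for 6 (1.65%, against 0.844%). No member had a pseudogene as its nearest start, which allows a share of up to 0.826% (3 counts of 363), whereas 7.10% of eligible bases did. Masked, unknown or Y bases made up 31.8% of eligible bases, and the pseudogene share was not recounted without them.

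Gaps between genes were sorted by the direction of the genes on both sides. Divergent gaps, from which both genes are transcribed outward, held 109 members (30.0%, 25.5 to 34.9) against 19.6% of eligible bases. Tandem gaps held 184 (50.7%, against 51.1%) and convergent gaps held 70 (19.3%, against 25.8%). The divergent share was 32.0%, 31.3% and 29.0% in the top entries of replicates 1, 2 and 3, a mean of 30.8% ± 1.52 (SD, n = 3), and the convergent share averaged 19.9% ± 1.59. Both differed from the share of eligible bases by more than the spread between replicates. Divergent gaps have a TSS at both ends and convergent gaps at neither, and members lay closer to a TSS than eligible bases did. Whether the direction of the genes matters apart from that distance was not tested.

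The 363 members lay in 262 of the 6626 gaps with eligible sequence, and 62 gaps held 2 or more, with 163 members between them. Gaps with a member had a median length of 6984 bp, against 1692.5 bp for all gaps with eligible sequence. A longer gap offers more room for a summit, so this contrast cannot show a preference for long gaps. On arm 3L, 2 gaps held 7 members each. One, of 17787 bp, lies between scyl, a hypoxia-induced inhibitor of TOR signalling, and lncRNA:CR44720; its strongest summit, 2226 bp downstream of the lncRNA:CR44720 start, had 2.46, 2.22 and 1.83, and its weakest, 9373 bp downstream of the scyl start, had 0.394, 0.228 and 0.894. The other, of 75047 bp, lies between NijA, which encodes the cell-surface protein ninjurin A, and CG43245; its strongest summit, 19115 bp upstream of CG43245, had 2.16, 1.69 and 1.80, and the best of the other 6 had 1.03, 1.84 and 1.39. In both gaps only some of the members rose above the median combined peak in every replicate.

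Besides the gap near chinmo, 5 members lay in the gap between lncRNA:CR44363 and CG7560 on arm 3L, and 5 in the gap between CG43402 and CG31928 on arm 2L. Near CG7560 the best summit, 6771 bp upstream, had 1.27, 1.50 and 1.87. In the CG31928 gap, 2 summits share an interval of 1485920 to 1486366, and with it the values of 4.67, 4.39 and 5.55. Their agreement across replicates was close, at 4.87 ± 0.605 (SD, n = 3).

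Members were not evenly spread over the arms. Arm 3L held 109 members (30.0%, against 23.3% of eligible bases, a ratio of 1.29) and arm 2L held 78 (21.5% against 17.2%, 1.25). Arm 3R held 74 (1.04), arm 2R held 56 (0.807), the X held 43 (0.869) and chromosome 4 held 3 (1.31), all 3 supported by every replicate. The Y held 0 members, with 6.44% of eligible bases, which raises the ratio of every other arm. In the replicates' own top entries the ratio was 1.22 ± 0.022 on 3L, 1.31 ± 0.044 on 2L and 0.735 ± 0.141 on X (SD, n = 3 each). With unmasked sequence only and without the Y, 3L stood at 1.16, 2L at 1.06 and X at 0.816. The 3L ratio was thus smaller, and 2L was close to 1, once masked sequence and the Y were left out. The X held 11.8% of the members and 20.3% of the other combined peaks. The megabase with most members, picked after the counts were seen, ran from 11000001 to 12000000 on 3L. It held 22 members at 18 sites (6.06% of members, against 0.667% of eligible bases), of which 10 members were supported by all 3 replicates. Each replicate had 23 intergenic entries of its own there, but the combined list was chosen from the same replicates. The scyl and CG7560 gaps lie in this megabase, and the chinmo and CG31928 gaps lie in the megabase from 1000001 on 2L, which held 17 members.

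The share of intergenic peaks with a developmental regulator as nearest gene was above that of eligible sequence. For 29 members (7.99%, 5.62 to 11.2) the nearest gene of any kind was in one of 7 developmental lists, against 3.87% of eligible bases. With the nearest protein-coding gene the count was 46 at 29 genes (12.7%), against 5.82%. In the replicates' own top entries the share averaged 7.23% ± 0.439 (SD, n = 3). Of combined peaks within genes, 5.86% were nearest to such a gene, but the matching share of bases within genes was not counted. With unmasked sequence only, the shares were 6.69% of members and 4.40% of eligible bases. The lists were chosen with earlier results of these data known. They are small, so several of the values below rest on 1 or 2 genes.

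Segmentation genes, which divide the early embryo along its axis, were nearest to 7 members at 6 genes (1.93%, against 0.818% of eligible bases). The strongest lay 6829 bp upstream of hh, the Hedgehog ligand gene, with 3.35, 2.98 and 4.30 in replicates 1, 2 and 3. Another, 4313 bp upstream of slp2, a forkhead gene of the pair-rule system, had 0.981, 2.61 and 2.20 and so was at the median in replicate 1. Other homeobox, T-box, GATA, Sox and Fox genes were nearest to 16 members at 11 genes (4.41%, against 2.15%). Among them were unpg, at 6.01, 5.10 and 6.32, and foxo, the forkhead factor that insulin signalling restrains, at 2.59, 2.99 and 2.83 for the summit 3321 bp upstream. The foxo gap held 3 members, all supported by every replicate.

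The neuronal temporal identity list owed its count to 1 locus: of 8 members with a list gene as the nearest protein-coding start, 7 were at chinmo and 1 lay 16038 bp upstream of dan, with 0.623, 0.593 and 0.464. Those 8 are 2.20% of members, against 0.206% of eligible bases. By the nearest gene of any kind the count was 3 (0.826%, against 0.0942%). Proneural, bHLH and Notch pathway genes had 1 member (0.275%, against 0.182% of eligible bases), 1831 bp upstream of E(spl)malpha-BFM, with 0.868, 1.47 and 0.825. Secreted ligands had 3 (0.826%, against 0.468%), led by spz (5.97, 3.72 and 3.68) and hh. Growth genes had 3 by nearest gene (0.826%, against 0.0414%), all at foxo. By nearest protein-coding gene they had 5 (1.38%, against 0.0918%), the other 2 upstream of Myc. Of the combined peaks within genes, 1.16% were nearest to a growth gene. Hox genes had 0 (against 0.0517% of eligible bases), and so had genes of the ecdysone response and nuclear receptors (against 0.416%), where 26 of the 1212 combined peaks within genes were found; a count of 0 allows up to 0.826%, above both shares.

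Differentiation genes were nearest to few members, so their shares rest on 3 or 4 peaks each. Muscle genes were nearest to 3 members (0.826%, against 0.175% of eligible bases), led by one 1819 bp upstream of wupA, which encodes troponin I, with 2.76, 1.39 and 1.13, and one near Zasp52, a Z-disc gene, with 0.969, 1.62 and 1.48. Cuticle protein genes had 3 (0.826%, against 0.472%), led by Cpr100A with 4.12, 2.37 and 2.45, while the second, near Cpr76Ba, had no entry in replicate 1 and 2.30 and 2.78 in the others. Chemoreceptor and odorant-binding protein genes had 3 (0.826%, against 1.43%), at most 0.802, 1.10 and 0.839 near Gr93d, and adhesion and axon guidance genes had 4 (1.10%, against 2.06% of eligible bases), the first near dpr20 with 0.828, 0.855 and 0.694. Transfer RNA genes had 6 (1.65%, against 0.844%), the best near tRNA:Phe-GAA-1-7 with 1.30, 1.30 and 1.22. Cytosolic ribosomal protein, microRNA, heat shock, and neuronal channel and synapse genes had 0, which allows a share of up to 0.826% in each list. Their shares of eligible bases, 0.408%, 0.370%, 0.0642% and 0.325% in that order, lie below this limit, so a lower share among members was not detectable.

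The sequence at the summits was richer in A and T than its surroundings. Median GC content was 36.6% in the 101 bp at members' summits, against 42.1% in flanking windows centred 500 bp away, and 67.5% of members were below their own flanks. Other combined peaks had 34.7% at summits and 43.1% in flanks, and eligible sequence as a whole 40.7%. The median width of a member's interval was 404 bp, and so was that of other combined peaks. Another combined summit lay within 2000 bp for 36.9% of members and for 32.0% of the other peaks. Among the latter, peaks within genes had 37.3%, much as the members did, and peaks near a TSS had 27.5%.

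A weight matrix of 16 positions was built from the 1000 highest-scoring other combined peaks that lay more than 1000 bp from any member, starting from the 8 letters GTAGGGTA, and was then read at the members, which had no part in it. A match was a log-odds score above 7.86, which 5% of the flanking windows of the training peaks exceed. Members had a match within 50 bp of the summit in 48 of 363 cases, 13.2% (10.1 to 17.1), against 5.51% in their own flanks. The same share was 13.0% in all combined peaks, which include the 1000 training peaks (18.3%). It was 9.72% (8.38 to 11.3) in the 1625 other peaks that were not used to build the matrix. Those had a median rank of 2044, because the highest-scoring peaks were taken for training, whereas members ran from rank 6 to 2986. Their share and that of the members thus compare unlike ranks. Of 67840 windows of the same length spaced evenly over the genome, 5.22% held a match. With the members split by score into 3 parts of 121, 18.2% (12.3 to 26.0) of the highest-scoring part had a match, 13.2% (8.31 to 20.4) of the middle part and 8.26% (4.55 to 14.5) of the lowest. All 3 intervals overlap each other, also those of the highest and the lowest part. The 8 starting letters themselves occurred, on either strand, in 8 members (2.20%), against 0.275% of flanks and 0.109% of genome windows.

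The sites printed next are the matches at 4 further named members and, chosen after its values were seen, at the printed member with the highest matrix score, 3100 bp upstream of corto, which encodes a chromatin protein. They are shown beside those of Asator and AOX4 to let a reader see what the members share with the rest of the list. Each is read on the strand of the match, with the 9 central positions in capitals.
spz, chr3R:27071099-27071114, plus strand: aagtGTAGGGCTTctc
Cpr100A, chr3R:30860714-30860729, plus strand: gctaGAAGGGCATata
foxo, 4666 bp upstream, chr3R:14052239-14052254, plus strand: aagtGTGGGGGATgca
tRNA:Ile-TAT-1-2, chr3L:781251-781266, minus strand: aagtGCAGAGGCTtcc
corto, chr3R:5090164-5090179, plus strand: gtgtGTAGGGTATctc
The 5 sites differ from each other at several of the capital positions.

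**Figure D5:**
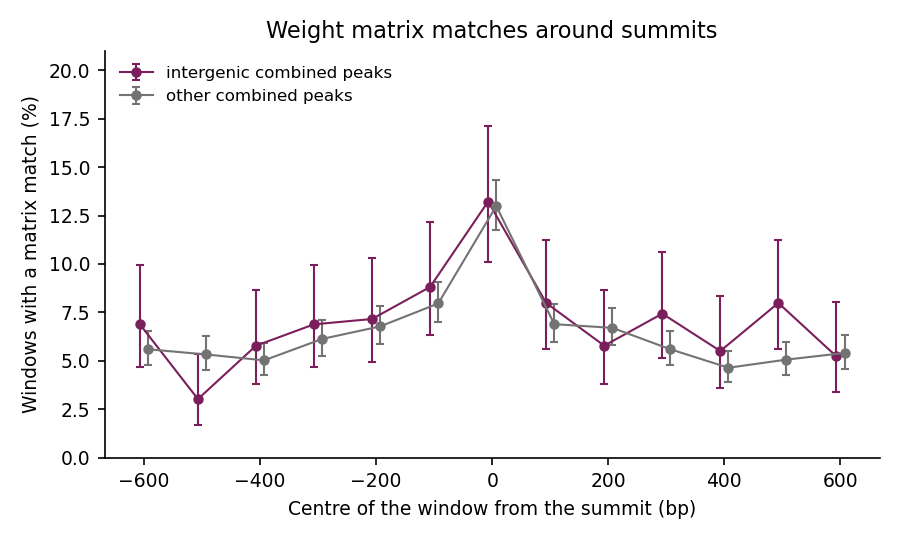
Percent of 101 bp windows with a matrix match against the distance of the window from the summit, for intergenic peaks and for other combined peaks; bars are 95% Wilson intervals, and the other peaks include the 1000 from which the matrix was built. Both peak at the summit, at 13.2% and 13.0%, and lie between 3.03% and 8.82% elsewhere.

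Short motifs of known fly factors were counted on both strands, and only some are given here. Several showed little contrast, such as the AP-1 site TGANTCA (2.48% of members, 2.89% of flanks) and the GATA site AGATAAG (1.65% and 1.38%). The Zelda motif CAGGTA, bound by a factor that opens chromatin in the early embryo, was found in 15 members (4.13%, 2.52 to 6.71). That compares with 1.65% of their flanks, 2.40% of the other combined peaks and 2.29% of genome windows. The lower end of the interval lies close to the last 2 shares, and the flanks lie below the genome windows. TATAAA was found in 18.7% of members, 10.7% of their flanks and 20.1% of the other peaks. The DNA replication-related element TATCGATA, common at promoters of housekeeping genes, was found in 1 member (0.275%, 0.049 to 1.54) and in 0.551% of flanks. The other peaks had it in 1.37%, a share inside the members' interval. It was 2.41% for peaks near a TSS and 0.165% for peaks within genes, so the low share was not particular to members. The GAGA motif GAGAG was found in 8.54% of members, 11.98% of flanks and 9.79% of the other peaks. The homeodomain core TAATTA was found in 8.82% of members and 7.44% of flanks, and the bHLH site CAGGTG in 3.03% and 4.68%. The E-box CACGTG, the site read by Myc with its partner Max, was found in 1 member (0.275%) and in 1.24% of flanks.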

How the data were processed

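Peak lists in narrowPeak format were deposited for 3 replicates, for the pooled replicates and as a combined list that passed the irreproducible discovery rate, per the labels and the descriptions beside the files. The peak score (column 7), as deposited by the authors, is above 0 and has no upper limit, and was not rescaled between lists. The sources used here do not give the aligner, the peak caller or any threshold, and depth per sample is unknown. The dm6 lists were read against the Drosophila release 6 genome and the BDGP6.54 annotation of Ensembl release 115, which held 18277 genes without transposable elements; the dm3 lists were not used. Summits are the interval start plus the summit offset, given 1-based.

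Relative scores take the best-scoring overlapping entry of a replicate and divide it by the median that the 2292 combined peaks found in all 3 lists have there. Eligible bases were counted exactly over the 7 arms. Flanks are windows of 101 bp at 500 bp. The matrix was refined over 10 rounds. Of the list symbols, 10 were matched by an older name and 5 were unmatched. Named members were the 15 highest-scoring, up to 2 per gene list, those of the gaps with most members, and those nearest the 500 bp limit; none lay within 100 kb of CG10274. Members, lists and tests were chosen with earlier results of these data known. Nothing in the labels says that the replicates came from separate parents, so SDs and p-values measure only the spread between these samples. Python 3.11.15, numpy 2.4.6, pandas 2.3.3, scipy 1.17.1 and matplotlib 3.10.9 were used, and the code was tested on simulated data. Alternatives covered the TSS distance, the annotation, the number of top entries, the overlap, windows, replicates left out, 1 summit per site and unmasked sequence, the last pair chosen after seeing the data.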

Additional observations from a re-analysis of the deposited data

How the results depend on the processing

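Of 67 alternative values, 41 were taken as alike: counts within 1.5 times of the main count, log2 ratios with the same sign, and shares, distances and ratios within their interval or SD. The number of intergenic peaks was 516 with a limit of 250 bp from a TSS, 466 with protein-coding genes only, 288 with a limit of 1000 bp, 204 with a limit of 2000 bp and 171 among the first 1494 ranks of the combined list. The share supported by all replicates was 79.3% with the top 10000 entries, 29.2% with a reciprocal overlap of 50%, 86.0% in those ranks and 41.7% with a limit of 2000 bp, and with 1 replicate left out it ran from 53.7% to 66.7% of members supported by the other pair. The score ratio reversed, to a log2 ratio of 0.080, when members were set against peaks within genes only, and stayed negative in the other alternatives, from −0.18 to −0.030. The distance to protein-coding TSSs only had a median of 3756 bp. The divergent share was 37.2% in gaps between protein-coding genes, where eligible bases had 22.3%, and 32.96% among members supported by all replicates. The developmental-list ratio of 2.06 was 1.56 with either flanking gene, 2.27 in those ranks and 1.52 with unmasked sequence. The ratio on 3L was 1.20 for members supported by all replicates, 1.26 with 1 summit per site, 1.16 with unmasked sequence, and 1.17 to 1.28 with 1 replicate left out. The share with a matrix match was 6.89% with 25 bp each side (flanks 1.24%), 23.7% with 100 bp (flanks 11.3%) and 17.3% among members supported by all replicates. No paired analysis was possible because there is 1 group. Depth is unknown, so weak members cannot be told from members sampled too thinly; repeats limit where reads can be placed, and 64 of the 363 summits lie in masked sequence.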
